A study of Homo sapiens with 18 samples.

Results

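The serine synthesis and folate one-carbon enzymes are 10 genes, taken by name from tables of read counts and FPKM of prostate cancer cells. The count tables list 22136 genes at 2 days and 21276 genes at 7 days. They are PHGDH, PSAT1 and PSPH of serine synthesis, SHMT1 and SHMT2, which split serine into glycine and a one-carbon unit, and MTHFD1, MTHFD1L, MTHFD2, MTHFD2L and ALDH1L2, which carry that unit on folate. SHMT1 and MTHFD1 work in the cytosol, and SHMT2, MTHFD1L, MTHFD2, MTHFD2L and ALDH1L2 in mitochondria. All 10 were found in both tables and passed the filter on low counts at both times.

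Poly(A) RNA was sequenced from C4-2B, a human prostate cancer cell line that carries the androgen receptor and grows without androgen, in 18 libraries of 6 groups with 3 libraries each. All cells were unedited C4-2B kept in RPMI medium with serum, so every group is the same line. At 2 days the groups were DMSO vehicle (VEH) and 0.1 μM of VIC-1911 (VIC), an inhibitor of the mitotic kinase AURKA. The 7-day groups were vehicle, VIC-1911 at the same dose, olaparib (OLA), a PARP inhibitor, at 1 μM, and the pair of drugs at these doses (COMBO). Nothing in the sample labels says whether the 3 libraries of a group came from separate cultures, so the p-values measure the spread between libraries, which may be technical.

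Cells make serine from the glycolytic intermediate 3-phosphoglycerate in the steps of PHGDH, PSAT1 and PSPH. Serine then feeds a loop between the compartments: in mitochondria SHMT2, MTHFD2 or MTHFD2L, and MTHFD1L turn it into glycine and formate, and in the cytosol MTHFD1 loads that formate onto folate for the synthesis of purines and thymidylate, while SHMT1 can run in either direction. Several of these genes, among them PHGDH, PSAT1, SHMT2 and MTHFD2, are known targets of ATF4, the transcription factor of the amino acid response, and MTHFD2 is low in most adult tissues and high in many tumors.

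The bases just upstream of the start are shown for the serine synthesis genes PHGDH and PSAT1 and for MTHFD2, whose transcripts were lower after every treatment, and for SHMT1 and MTHFD1, the cytosolic enzymes whose transcripts were higher at 7 days. Each run holds the 100 bases before the annotated start in RefSeq (GRCh38.p14), 5′ to 3′ on the strand of the gene. Capitals mark CCAAT (or ATTGG, its reverse complement), GGGCGG and CACGTG.
PHGDH (chr1:119711834-119711933, + strand): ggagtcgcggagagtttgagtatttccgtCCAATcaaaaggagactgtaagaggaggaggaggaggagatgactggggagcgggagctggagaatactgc
PSAT1 (chr9:78297025-78297124, + strand): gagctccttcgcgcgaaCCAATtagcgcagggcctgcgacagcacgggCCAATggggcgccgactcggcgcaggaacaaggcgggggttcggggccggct
MTHFD2 (chr2:74198515-74198614, + strand): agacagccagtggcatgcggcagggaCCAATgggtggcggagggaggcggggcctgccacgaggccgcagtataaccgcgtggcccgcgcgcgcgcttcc
SHMT1 (chr17:18363551-18363650, - strand): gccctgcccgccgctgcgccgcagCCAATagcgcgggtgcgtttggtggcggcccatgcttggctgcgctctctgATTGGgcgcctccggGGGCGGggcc
MTHFD1 (chr14:64388253-64388352, + strand): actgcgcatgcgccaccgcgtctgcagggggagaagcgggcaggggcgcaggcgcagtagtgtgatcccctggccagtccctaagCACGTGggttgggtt
CCAAT lay 71 bases upstream of the PHGDH start, 83 and 52 bases upstream of the PSAT1 start and 74 bases upstream of the MTHFD2 start. SHMT1, which did not move with them, holds it too, at 76 and 25 bases, and the MTHFD1 window holds CACGTG at 15 bases instead. The first bases of the PHGDH window also lie in the end of a noncoding gene.

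TGATGNAA, the core of the C/EBP-ATF response element to which ATF4 binds, was searched on both strands of the 250 bases before each start. Of the members it was found in MTHFD1L alone, at a single place that lies 90 bases before one annotated start and 129 bases before another, and 3.14% of 35116 promoters hold it. The 30 bases around it are shown with the match in capitals.
MTHFD1L (chr6:150866346-150866375, + strand): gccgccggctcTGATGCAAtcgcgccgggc
The table of promoters held 11 entries for 7 of the members. CCAAT stood in 8 of the 11 entries and in 32.0% of all promoters, GGGCGG in 6 and in 42.6%, and CACGTG in 3 and in 6.34%. The entries are not separate genes, and those of MTHFD1L overlap, so a site can count more than once. Its CACGTG, 154 and 115 bases before different annotated starts, is a single place. So is its CCAAT, at 193, 154 and 40 bases. These matches only describe the letters of the window, and PSPH, SHMT2 and ALDH1L2 had no entry.

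PHGDH, the first and committed enzyme of serine synthesis, was the most abundant of the 10 transcripts in every group. In FPKM, the reads on a gene divided by its length and by the size of the library, it stood at 284, 285 and 278 in the vehicle libraries of 2 days and at 151, 158 and 176 with VIC-1911. At 7 days it was 406, 426 and 433 in vehicle, 128, 137 and 137 with VIC-1911, 104, 114 and 98.9 with olaparib, and 99.1, 92.8 and 92.3 with the combination. Every treated library lay below every vehicle library of its time. Against vehicle its log2 fold change was -0.79 (SE 0.047) at 2 days, and at 7 days -1.70 (SE 0.048) with VIC-1911, -2.02 (SE 0.049) with olaparib and -2.16 (SE 0.049) with both, which is 1.72-fold, 3.25-fold, 4.05-fold and 4.46-fold lower (adjusted p of at most 7.35e-16 in each, edgeR).

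PSAT1, the aminotransferase that follows PHGDH, fell further at 7 days. Its FPKM was 240, 230 and 227 in the 2-day vehicle libraries and 131, 135 and 160 with VIC-1911. At 7 days it was 302, 320 and 333 in vehicle, and the 9 treated libraries were all between 57.0 and 71.2. The groups of treated and vehicle cells did not overlap at either time, and at 7 days PSAT1 was 4.77-fold lower with VIC-1911, 5.34-fold lower with olaparib and 5.46-fold lower with the combination. PSPH, the phosphatase of the last step, had a smaller change, from 42.9, 40.1 and 42.8 FPKM in vehicle to 17.8, 16.9 and 17.0 with VIC-1911, 16.5, 16.4 and 17.7 with olaparib and 18.7, 18.2 and 17.7 with the combination. That was 2.51-fold, 2.50-fold and 2.30-fold lower, and PSPH was the one serine synthesis gene whose mean was higher in the combination than with either drug, by a log2 difference of 0.12 (SE 0.059) against olaparib and 0.12 (SE 0.059) against VIC-1911, neither of which passed (adjusted p = 0.218 and 0.0888, edgeR). Against VIC-1911 it passed with upper-quartile scaling (0.16, adjusted p = 0.0252) and with no scaling beyond library size (0.15, adjusted p = 0.0348).

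**Figure D1:**
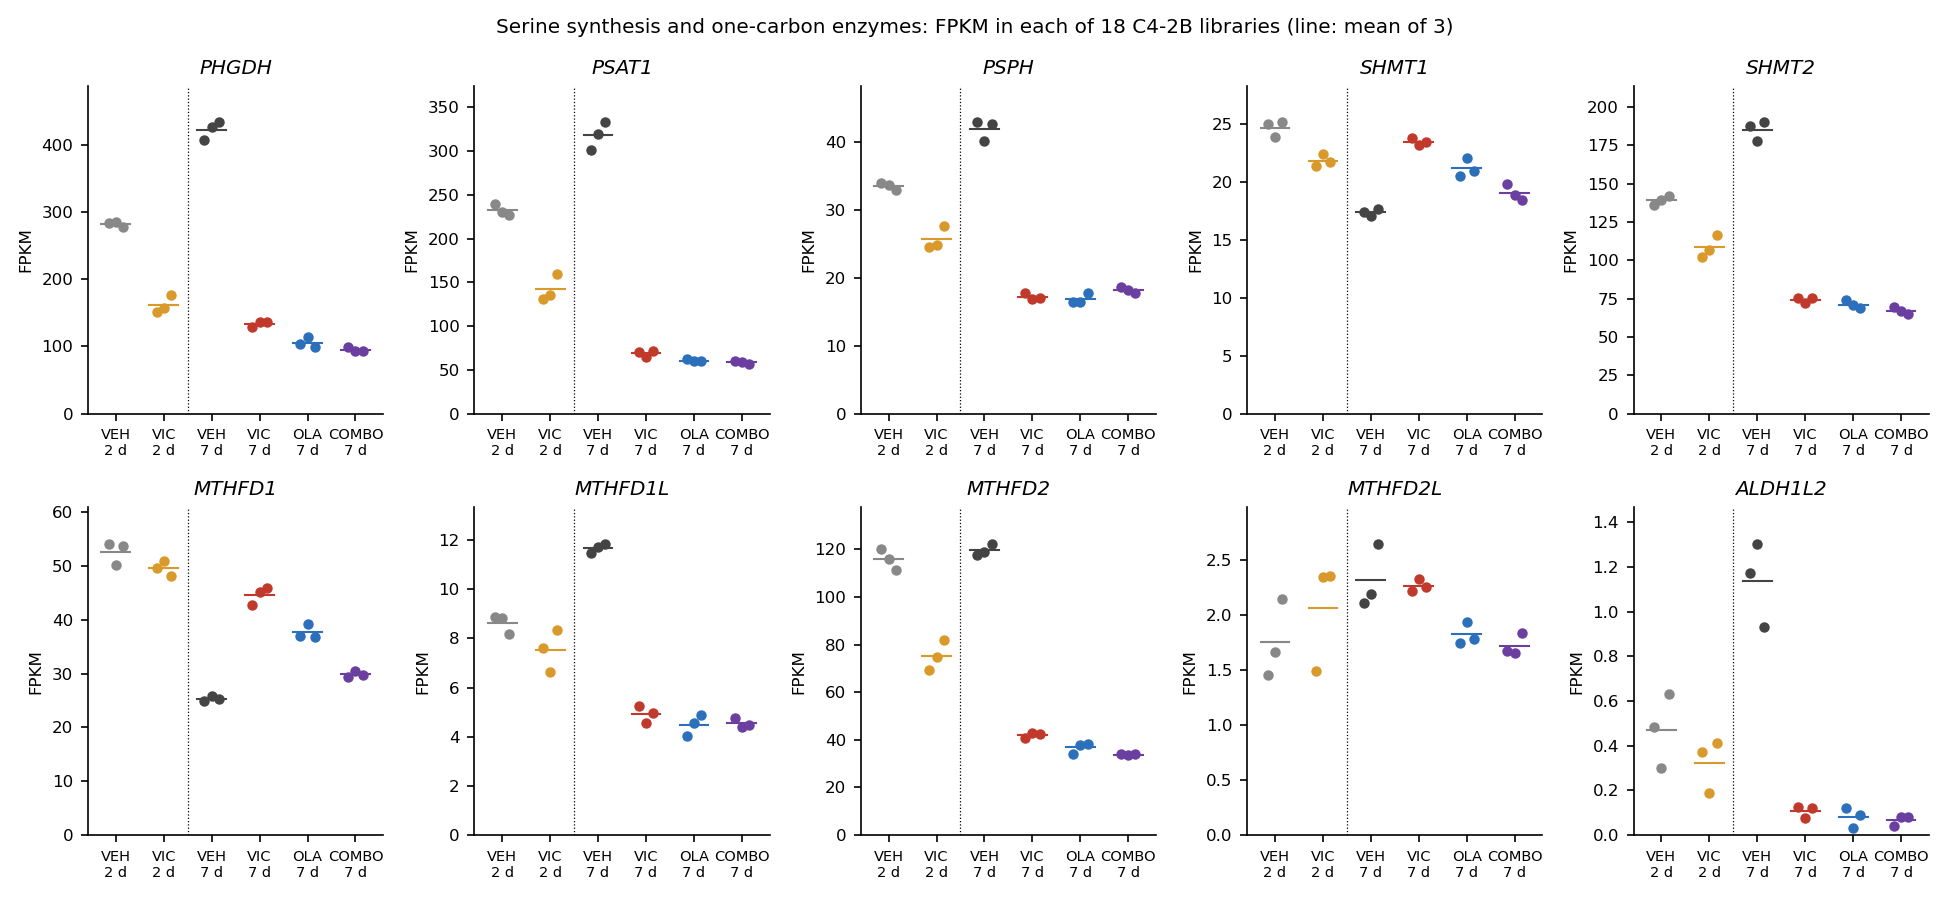
FPKM of each of the 10 enzymes (y axes, from 0, a scale for each gene) in the 18 libraries, with 1 point per library, a line at the mean of 3 libraries, and a dotted line between the 2-day and the 7-day groups. In 7 of the 10 panels the 7-day vehicle libraries stand above all treated libraries of that time, and in the SHMT1 and MTHFD1 panels they stand below them.

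The mitochondrial and the cytosolic serine hydroxymethyltransferase moved in opposite directions at 7 days. SHMT2, the mitochondrial enzyme, was at 188, 178 and 190 FPKM in vehicle, 75.1, 72.4 and 75.4 with VIC-1911, 73.9, 70.8 and 68.6 with olaparib and 69.3, 67.0 and 65.0 with the combination. SHMT1, the cytosolic enzyme, was at 17.4, 17.0 and 17.7 FPKM in vehicle, 23.8, 23.2 and 23.5 with VIC-1911, 20.5, 22.0 and 21.0 with olaparib and 19.8, 18.9 and 18.4 with the combination. All treated libraries were thus below the vehicle libraries for SHMT2 and above them for SHMT1. SHMT2 fell by log2 fold changes of -1.36 (SE 0.043), -1.40 (SE 0.044) and -1.47 (SE 0.043), and SHMT1 rose by 0.39 (SE 0.054), 0.28 (SE 0.054) and 0.13 (SE 0.054) with VIC-1911, olaparib and both. The rise of SHMT1 in the combination (adjusted p = 0.0353, edgeR) was lost with DESeq2 (adjusted p = 0.0777), without the filter on counts (0.0953), in a fit of these groups alone (0.0700), and without any one of the vehicle libraries (adjusted p between 0.0590 and 0.163) or the first combination library (0.185).

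MTHFD1, the cytosolic enzyme of 3 activities that takes up formate, had the clearest rise. Its FPKM was 24.9, 25.8 and 25.2 in the 7-day vehicle libraries, 42.8, 45.1 and 45.9 with VIC-1911, 37.0, 39.1 and 36.8 with olaparib and 29.4, 30.5 and 29.8 with the combination. The 4 groups did not overlap, and they ranked in the order vehicle, combination, olaparib and VIC-1911. The log2 fold changes were 0.77 (SE 0.047), 0.56 (SE 0.047) and 0.23 (SE 0.047) with VIC-1911, olaparib and both. The 2-day levels, which come from a separately normalized table, were higher than all of these, at 54.1, 50.2 and 53.7 FPKM in vehicle and 49.7, 50.9 and 48.1 with VIC-1911.

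MTHFD2, the mitochondrial dehydrogenase and cyclohydrolase, went the other way from MTHFD1. In vehicle it was at 120, 116 and 111 FPKM at 2 days and 118, 119 and 122 at 7 days. With VIC-1911 it was at 69.3, 74.9 and 82.0 at 2 days and 40.9, 42.9 and 42.5 at 7 days, and at 7 days it was at 34.0, 38.0 and 38.3 with olaparib and 33.9, 33.6 and 33.9 with the combination. No treated library reached the vehicle range of its time, and MTHFD2 was 1.51-fold lower at 2 days and 2.93-fold, 3.26-fold and 3.55-fold lower at 7 days. SLC4A5, a bicarbonate transporter gene, shares 1324 bases of genome with MTHFD2, and MTHFD2 has 7 pseudogene copies, so its counts could hold reads of others.

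MTHFD1L, the mitochondrial enzyme that releases formate, was at 11.5, 11.7 and 11.8 FPKM in the 7-day vehicle libraries and between 4.03 and 5.25 in the 9 treated libraries. It was 2.45-fold lower with VIC-1911, 2.57-fold lower with olaparib and 2.57-fold lower with both, and the treated groups overlapped each other. ALDH1L2, the mitochondrial dehydrogenase that burns formyl-folate to carbon dioxide, was the least abundant of the set and had the largest fold changes. It was at 1.17, 1.30 and 0.932 FPKM in vehicle (62 to 223 counts), 0.126, 0.0743 and 0.120 with VIC-1911 (9 to 18 counts), 0.122, 0.030 and 0.0877 with olaparib (5 to 17 counts), and 0.0403, 0.0789 and 0.0800 with the combination (7 to 12 counts). The treated groups overlapped each other and lay far below vehicle, with log2 fold changes of -3.49 (SE 0.24), -4.09 (SE 0.26) and -4.17 (SE 0.26), and the few counts left no basis for ordering the treatments.

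MTHFD2L, the second mitochondrial enzyme of the MTHFD2 step, had the smallest change with VIC-1911 at 7 days. Its FPKM was 2.11, 2.19 and 2.64 in vehicle at 7 days, 2.21, 2.32 and 2.25 with VIC-1911, 1.75, 1.93 and 1.78 with olaparib and 1.67, 1.65 and 1.83 with the combination. The VIC-1911 libraries fell within the vehicle range, and the olaparib and combination libraries lay below it. The log2 fold changes were -0.04 (SE 0.14) with VIC-1911, -0.31 (SE 0.14, adjusted p = 0.0629, edgeR) with olaparib and -0.39 (SE 0.14, adjusted p = 0.0188) with the combination. The change with olaparib passed with the filter on mean FPKM (adjusted p = 0.0453), with limma at either pseudocount (0.0186 and 0.0144) and without the first vehicle library (0.0464). The change with the combination missed the threshold with DESeq2 (adjusted p = 0.0509), without the third vehicle library (0.0599) and without the first combination library (0.0547).

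Counted over the set, VIC-1911 at 2 days lowered 5 members (PHGDH, PSAT1, PSPH, SHMT2 and MTHFD2) at an adjusted p under 0.05 and raised 0, beside 7.19% of all tested genes lower and 7.5% higher. At an unadjusted p under 0.05, or with DESeq2, the number raised was also 0, and SHMT1 was lower at an unadjusted p of 0.0120 (log2 fold change -0.18, SE 0.066, adjusted p = 0.0703), and it passed with upper-quartile scaling (adjusted p = 0.0410) and with limma at either pseudocount (0.0423 and 0.0418). With a fold change of at least 1.5 the count was 3 members lower (PHGDH, PSAT1 and MTHFD2) and 0 higher, beside 1.33% and 0.825% of genes. At 7 days, 7 members were lower by at least 2-fold at an adjusted p under 0.05 with VIC-1911 (3.43% of genes), 7 with olaparib (3.53%) and 7 with the combination (4% of genes), and these comparisons share the vehicle libraries. By the same rule 0 members were higher, beside 3.46%, 3.63% and 4.55% of genes. Without the limit on the fold, 7, 7 and 8 members were lower, beside 25.8%, 25.9% and 28% of genes, and SHMT1 and MTHFD1 were higher in each of the comparisons, beside 26.6%, 28.1% and 28.6%. The median log2 fold change of the 10 was -1.34 with VIC-1911, -1.38 with olaparib and -1.41 with the combination at 7 days and -0.25 at 2 days, beside medians of all tested genes of -0.0053, 0.010, 0.0047 and -0.0034.

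**Figure D2:**
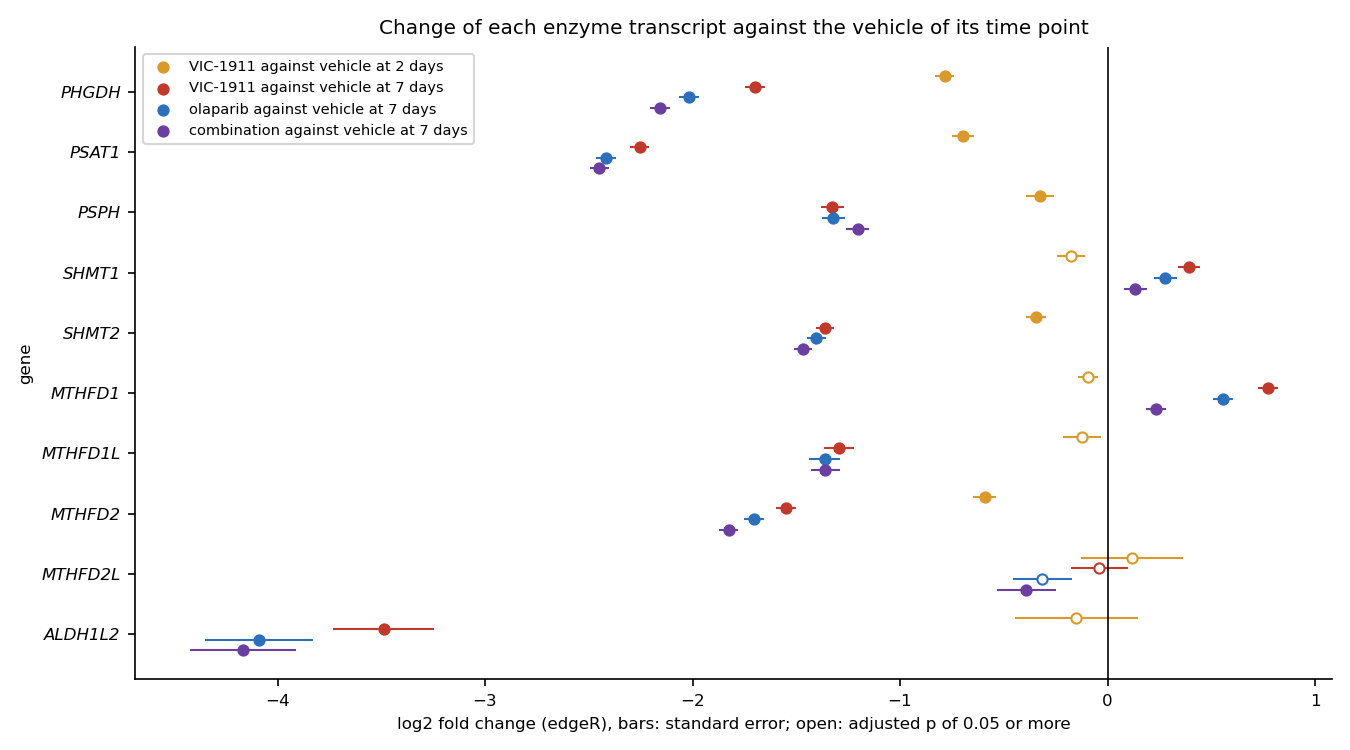
Log2 fold change (x axis, edgeR) of each enzyme (y axis) against the vehicle of its time, with bars for 1 SE, colors for the 4 comparisons and open points where the adjusted p was 0.05 or more. The 7-day points of 7 genes lie between -1.20 and -4.17, those of SHMT1 and MTHFD1 between 0.13 and 0.77, and the 2-day points between -0.79 and 0.12.

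The change with VIC-1911 was larger at 7 days than at 2 days for every member except MTHFD2L. This was tested by subtracting the 2-day from the 7-day log2 fold change of VIC-1911 in a joint fit. The difference was lower for 7 members (14.1% of 13811 genes) and higher for 2 (14.6%). Among the genes that fell, it ran from -0.93 (SE 0.065) for PHGDH to -3.35 (SE 0.39) for ALDH1L2 on the log2 scale, with -1.58 (SE 0.076) for PSAT1. SHMT1 and MTHFD1, which had 2-day changes of -0.18 and -0.09 that did not pass, had differences of 0.55 (SE 0.085) and 0.85 (SE 0.069). MTHFD2L had a difference of -0.18 (SE 0.29). Length of treatment and the separate experiments cannot be told apart, in the levels or in these differences. The vehicle levels themselves stood apart. Their 7-day over 2-day mean FPKM was 1.49 for PHGDH, 1.37 for PSAT1, 1.33 for SHMT2, 1.03 for MTHFD2 and 2.41 for ALDH1L2. It was 0.704 for SHMT1 and 0.480 for MTHFD1. MTHFD1 went from 52.7 at 2 days to 25.3 at 7 days in vehicle, and from 49.6 to 44.6 with VIC-1911.

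The ratio of a mitochondrial to a cytosolic enzyme within a library does not depend on how that library was scaled. SHMT2 stood at 10.4 to 10.8 times the FPKM of SHMT1 in the 7-day vehicle libraries, 3.12 to 3.21 times with VIC-1911, 3.21 to 3.60 times with olaparib and 3.50 to 3.54 times with the combination. MTHFD2 stood at 4.61 to 4.86 times MTHFD1 in vehicle, 0.927 to 0.955 times with VIC-1911, 0.919 to 1.04 times with olaparib and 1.10 to 1.16 times with the combination. In vehicle cells the mitochondrial transcript was thus several times the cytosolic one, and after 7 days of any treatment MTHFD2 and MTHFD1 stood at about the same level. The 4 groups differed in both ratios by an exact permutation test over 369600 assignments of the 12 libraries (p = 0.00117 and 0.000325, adjusted over 10 ratio tests 0.00292 and 0.00108), and no treated library reached the vehicle range.

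MTHFD1L stood at 0.454 to 0.470 times MTHFD1 in vehicle and at 0.101 to 0.162 times in the treated libraries (exact permutation p = 0.000260, adjusted 0.00108). MTHFD2L stood at 0.0846 to 0.105 times MTHFD1 in vehicle and at 0.0472 to 0.0616 times after treatment (exact permutation p = 0.000130, adjusted 0.00108). Within mitochondria, MTHFD2 stood at 46.3 to 55.8 times MTHFD2L in vehicle and at 18.5 to 21.5 times after treatment (exact permutation p = 0.00318, adjusted 0.00636), so the gap between these enzymes of the same step narrowed as MTHFD2 fell. Between the treatments, the combination stood above VIC-1911 without overlap in 4 of the ratios, by a log2 difference of 0.16 (SE 0.013) for SHMT2 to SHMT1, 0.26 (SE 0.025) for MTHFD2 to MTHFD1, 0.46 (SE 0.096) for MTHFD1L to MTHFD1 and 0.18 (SE 0.059) for MTHFD2L to MTHFD1. For each of these the exact permutation p was 0.1, the smallest that 20 assignments allow. For MTHFD2 to MTHFD2L, where the groups overlapped, the difference was 0.078 (SE 0.046, exact permutation p = 0.4). Against olaparib the combination stood higher without overlap for MTHFD2 (0.21, SE 0.056), MTHFD1L (0.36, SE 0.096) and MTHFD2L (0.25, SE 0.057) to MTHFD1. The groups overlapped for SHMT2 to SHMT1 (0.070, SE 0.052) and MTHFD2 to MTHFD2L (-0.038, SE 0.065). The ratios to MTHFD1 share that gene, itself lower in the combination (-0.54 against VIC-1911, -0.32 against olaparib).

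At 2 days the ratios had moved less. SHMT2 to SHMT1 had a geometric mean of 5.64 in vehicle and 4.95 with VIC-1911, and MTHFD2 to MTHFD1 one of 2.20 and 1.52, both without overlap between the groups (exact permutation p = 0.1 for each, the smallest that 20 assignments allow). MTHFD1L to MTHFD1 was 0.164 and 0.152, and MTHFD2L to MTHFD1 was 0.0328 and 0.0407, with groups that overlapped (exact permutation p = 0.5 and 0.3). MTHFD2 to MTHFD2L was 67.0 and 37.3 (exact permutation p = 0.1), on 15 to 47 counts of MTHFD2L per library.

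**Figure D3:**
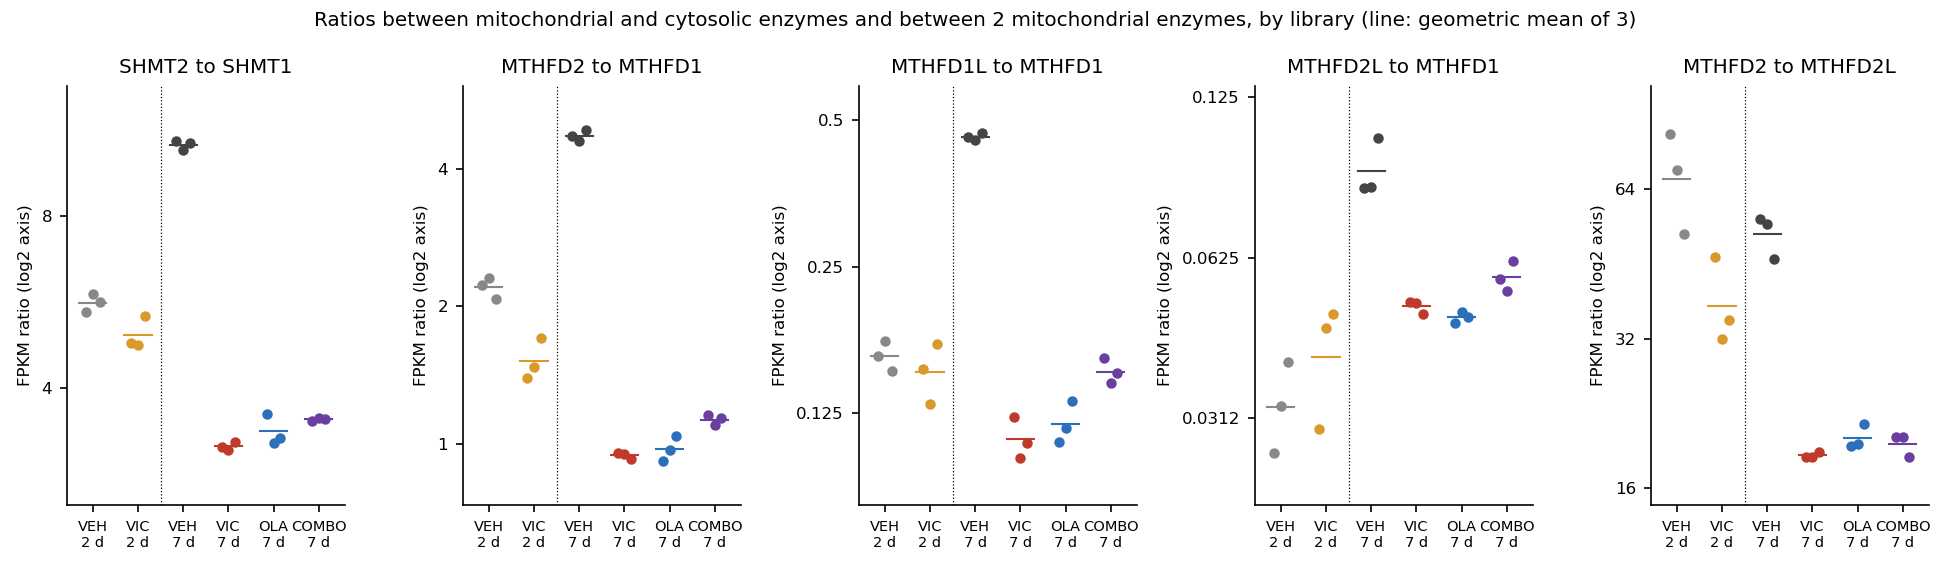
Ratio of the FPKM of 2 enzymes (y axes, log2 scale, a range for each panel) in each of the 18 libraries, with a line at the geometric mean of 3 libraries and a dotted line between the 2-day and the 7-day groups. The first 3 panels show the 7-day vehicle libraries far above the treated ones, with geometric means of 10.7 against 3.16 to 3.52 for SHMT2 to SHMT1.

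Whether the drugs added to each other was asked with the interaction, the effect of VIC-1911 in the presence of olaparib less its effect in vehicle. For the 7 genes that fell, VIC-1911 on top of olaparib had log2 fold changes between -0.14 (PHGDH, SE 0.049) and 0.12 (PSPH, SE 0.059), and none passed (the adjusted p of PHGDH was 0.0605, edgeR). PHGDH passed without the filter on counts (adjusted p = 0.0197), without the third olaparib library (0.0296) and without the first combination library (0.0345), and MTHFD2 passed without the first olaparib library (0.0476). The interaction passed for all 7 and was positive. It ran from 1.30 (SE 0.062) for SHMT2 and 1.30 (SE 0.11) for MTHFD1L to 2.22 (SE 0.066) for PSAT1 and 3.41 (SE 0.55) for ALDH1L2. ALDH1L2 had only 5 to 17 counts with olaparib and 7 to 12 with both drugs, which left little room to measure a further fall. Each of the 7 genes fell less with both drugs than the sum of the single-drug changes on the log2 scale, such as -2.45 against -4.67 for PSAT1. The interaction was negative for MTHFD1 (-1.10, SE 0.066) and SHMT1 (-0.54, SE 0.075) and did not pass for MTHFD2L (-0.04, SE 0.20). Of all genes 22.9% had a lower and 21% a higher interaction at an adjusted p under 0.05.

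VIC-1911 raised MTHFD1 in vehicle (log2 fold change 0.77) and lowered it in the presence of olaparib (-0.32, SE 0.046, adjusted p = 1.53e-05, edgeR), the one member that passed in that comparison, where 6.95% of genes were lower and 4.55% higher. SHMT1 was lower there without overlap but did not pass (-0.14, SE 0.053, adjusted p = 0.0765, edgeR). It passed with limma at either pseudocount (adjusted p = 0.0464 and 0.0445). In the combination libraries MTHFD1 stood at 29.9 ± 0.575 FPKM (SD, n = 3), between vehicle at 25.3 ± 0.470 and olaparib at 37.7 ± 1.28. Against VIC-1911 alone, the combination was lower for 6 members (22.2% of genes), by -0.54 (SE 0.045) for MTHFD1, -0.46 (SE 0.048) for PHGDH, -0.28 (SE 0.048) for MTHFD2, -0.26 (SE 0.052) for SHMT1 and -0.19 (SE 0.047) for PSAT1, and by -0.35 (SE 0.14, adjusted p = 0.0431) for MTHFD2L, a call that most alternative fits lost. SHMT2 did not pass (-0.11, SE 0.044, adjusted p = 0.0525) but did without the filter on counts (0.0424), with limma at either pseudocount (0.0122 and 0.0118) and without the first combination library (0.0385). Olaparib against VIC-1911 was lower for 4 members (12.3% of genes), by -0.32 (SE 0.049) for PHGDH, -0.22 (SE 0.045) for MTHFD1, -0.16 (SE 0.048) for PSAT1 and -0.15 (SE 0.049) for MTHFD2, where the calls for PSAT1 and MTHFD2 were lost without one or another library (adjusted p between 0.0550 and 0.0986), and that for MTHFD2 with upper-quartile scaling too (0.0515). The number of members that were higher at an adjusted p under 0.05 with edgeR and TMM scaling was 0 in the combination against VIC-1911, beside 20.7% of genes, and 0 in olaparib against VIC-1911, beside 11.1%. At an unadjusted p under 0.05 it was 0 in olaparib against VIC-1911 and 1 in the combination against VIC-1911 (PSPH, a log2 fold change of 0.12, SE 0.059). A change of at least 2-fold was reached by 0 members between any of the treatments, beside 0.0902% of genes lower and 0.291% higher in the combination against olaparib, 1.82% and 2.23% against VIC-1911, and 0.555% and 0.895% in olaparib against VIC-1911.

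**Figure D4:**
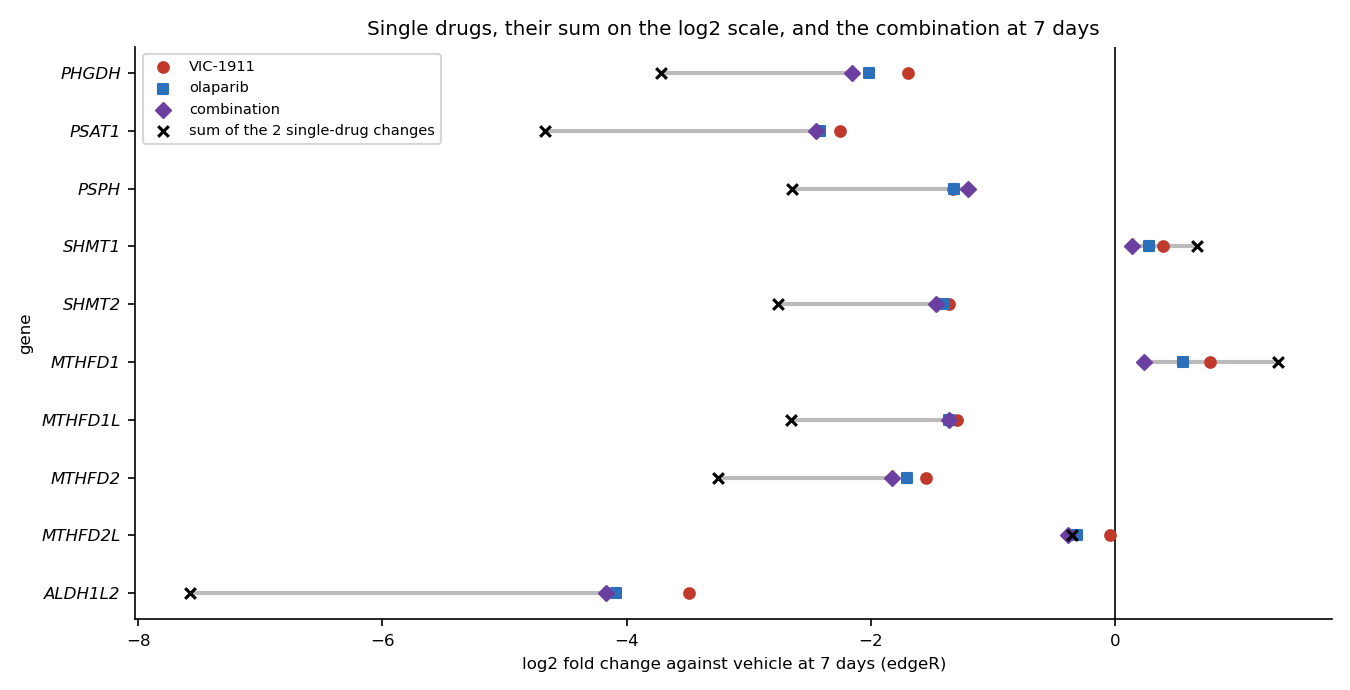
Log2 fold change against 7-day vehicle (x axis, edgeR) of each enzyme (y axis) with VIC-1911, olaparib and the combination, and a cross at the sum of the 2 single-drug changes, joined to the combination by a gray line. The combination lies at or near olaparib alone for the genes that fell and nearest to 0 for MTHFD1 (0.23) and SHMT1 (0.13).

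By their names in the labels, the vehicle and VIC-1911 libraries of 7 days are one run of library numbers, and the olaparib and combination libraries are another. The effect of VIC-1911 over vehicle, and that of the combination over olaparib, were each measured within a run. The interaction sets these effects of different runs against each other. A VIC-1911 effect that differs between the runs therefore cannot be told apart from the interaction. Olaparib or the combination against vehicle, and either against VIC-1911, cannot be told apart from the difference between the runs. Total counts were 3245273 to 7184420 at 2 days and 4967931 to 19684208 at 7 days, with fewer than 20 counts of ALDH1L2 in every treated library of 7 days. All 9 markers of luminal prostate cells were present in every library, at a summed FPKM of 4388 to 4425 in 7-day vehicle, 2899 to 3306 in the treated libraries of that time and 2472 to 2766 at 2 days. The 11 markers of basal, stromal, endothelial and immune cells summed to 7.70 to 15.5, with KRT5, DCN and CD3E at 0, and were highest in the combination (14.1 to 15.5, against 9.87 to 10.4 in 7-day vehicle), with CD68 the highest of them. Their part in the results was not tested. In bulk RNA a lower level in all cells and fewer cells that express a gene cannot be told apart.

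The reactions around the 10 enzymes were followed in 45 further genes of 7 lists, of which 37 were tested at 2 days and 41 at 7 days. BHMT and DMGDH met the filter on counts through the vehicle libraries alone and are left out of the 7-day counts. Of the other 39 genes, 9 passed lower and 16 higher with VIC-1911 (23.1% and 41.0%, beside 25.8% and 26.6% of all tested genes). With olaparib 11 were lower and 17 higher (28.2% and 43.6%, beside 25.9% and 28.1%), and with the combination 15 and 16 (38.5% and 41.0%, beside 28% and 28.6%). Genes of these lists thus passed in both directions, and at 2 days 4 of 37 were lower and 4 higher (10.8% each, beside 7.19% and 7.5%). Rises and falls of these genes are given against the vehicle of the same time. Their vehicle levels, like those of the members, could stand apart between the times.

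Transsulfuration, which turns homocysteine and serine into cysteine, was below the vehicle of 7 days with both of its genes. CTH, the enzyme that releases cysteine, was at 18.5 ± 1.5 FPKM in vehicle, 2.95 ± 0.258 with VIC-1911, 2.04 ± 0.0319 with olaparib and 2.00 ± 0.409 with the combination (SD, n = 3), and was 6.50-fold, 9.17-fold and 9.40-fold lower. It was lower at 2 days too, by a log2 fold change of -0.66 (SE 0.12, adjusted p = 0.000108, edgeR). CBS, the enzyme that joins serine to homocysteine, was at 18.8 ± 1.93 FPKM in vehicle and at 8.10 ± 0.685, 11.1 ± 0.456 and 12.2 ± 0.117 with VIC-1911, olaparib and both, with log2 fold changes of -1.26 (SE 0.068), -0.78 (SE 0.066) and -0.62 (SE 0.064). Among the 7-day groups CBS was lowest with VIC-1911, where CTH was highest among the treatments, and the olaparib and combination libraries of CTH overlapped. At 2 days, in a separately normalized table, CBS was at 5.68 ± 0.733 FPKM in vehicle and 4.69 ± 0.526 with VIC-1911, below all of its 7-day levels. CTH was at 10.0 ± 0.980 and 6.23 ± 0.386, between its 7-day treated and vehicle levels.

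Of the glycine cleavage system, which splits glycine in mitochondria, AMT fell with each treatment (log2 fold change -1.71 with VIC-1911, -0.76 with olaparib and -0.97 with the combination). GLDC, its decarboxylase, was low throughout (13 to 51 counts at 7 days) and passed with VIC-1911 (-1.04, SE 0.25) and the combination (-0.75, SE 0.23). GCSH, the carrier protein of the system, rose by 0.36 (SE 0.059), 0.40 (SE 0.060) and 0.34 (SE 0.059). With 2 genes lower and GCSH and DLD higher with VIC-1911, its 4 genes did not move together.

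Thymidylate and purines are made with folate-bound one-carbon units, which TYMS, GART and ATIC use. TYMS, the thymidylate synthase, was at 3.97 ± 0.647 FPKM in vehicle and at 9.81 ± 1.15, 8.23 ± 0.782 and 5.72 ± 0.273 with VIC-1911, olaparib and both (SD, n = 3), with log2 fold changes of 1.24 (SE 0.12), 0.98 (SE 0.12) and 0.50 (SE 0.12). This is the order of groups seen for MTHFD1, and TYMS had an interaction of -1.72 (SE 0.16). Of the 6 purine synthesis genes, 4 were higher with VIC-1911 and 0 lower, 5 higher and 1 lower with olaparib, and 4 higher and 1 lower with the combination. Beside these, 26.6%, 28.1% and 28.6% of all genes were higher and 25.8%, 25.9% and 28% lower. Of the purine enzymes that take up a one-carbon unit, GART rose by 0.29 (SE 0.046) with VIC-1911 and 0.19 (SE 0.047) with olaparib and did not pass in the combination (0.048, SE 0.046), and ATIC, the gene that was lower, did not pass with VIC-1911 (0.057, SE 0.043) and fell by -0.13 (SE 0.044) with olaparib and -0.19 (SE 0.043) with the combination. Of the enzymes that use no such unit, PAICS rose by 0.64 (SE 0.049), 0.56 (SE 0.049) and 0.50 (SE 0.049), PFAS by 0.38 (SE 0.057), 0.36 (SE 0.058) and 0.30 (SE 0.057), and PPAT, the first enzyme of the pathway, by 0.34 (SE 0.061), 0.38 (SE 0.061) and 0.29 (SE 0.060). At 2 days PPAT was the one gene of the list that passed (0.22, SE 0.064). Each of the 6 genes had a lower mean FPKM in 7-day than in 2-day vehicle, such as 49.1 against 118 for PAICS and 9.95 against 11.9 for PFAS. With VIC-1911, olaparib and both at 7 days, PAICS was at 79.2, 73.6 and 70.0, below its 2-day vehicle. PFAS was at 13.3, 12.9 and 12.3, above its 2-day vehicle. Length of culture and the separate experiments cannot be told apart here.

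SFXN1 and SLC25A32, carriers of the mitochondrial membrane, rose against the vehicle of 7 days. SFXN1, which brings serine into mitochondria, was at 21.9 ± 1.10 FPKM in vehicle and at 39.1 ± 0.448, 33.7 ± 1.59 and 29.6 ± 0.473 with VIC-1911, olaparib and both (SD, n = 3). Its log2 fold changes were 0.80 (SE 0.050), 0.62 (SE 0.050) and 0.44 (SE 0.050), with an interaction of -0.98 (SE 0.069). SLC25A32, the mitochondrial folate carrier, rose by 0.52 (SE 0.076), 0.38 (SE 0.077) and 0.38 (SE 0.076). At 2 days, in a separately normalized table, SFXN1 was at 41.3 ± 0.990 FPKM in vehicle and 42.6 ± 0.674 with VIC-1911, above all of its 7-day levels. SLC25A32 was at 7.86 ± 1.39 and 9.06 ± 0.739 at 2 days, and at 5.02 ± 0.242 in 7-day vehicle. FOLH1, known as PSMA, a folate hydrolase of the prostate cell surface, fell by -0.75 (SE 0.051), -1.0 (SE 0.051) and -1.19 (SE 0.051). GGH, the lysosomal hydrolase of folate chains, was lower at 2 days (-0.74, SE 0.089) but higher with VIC-1911 at 7 days (0.43, SE 0.093), and lower with the combination (-0.40, SE 0.098). MTFMT, which formylates the initiator tRNA of mitochondria, rose by 0.45 (SE 0.086), 0.37 (SE 0.087) and 0.41 (SE 0.085), and ALDH1L1, the cytosolic counterpart of ALDH1L2, passed with olaparib (0.56, SE 0.18) and the combination (1.21, SE 0.16), but not with VIC-1911 (-0.28, SE 0.20).

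In the methionine cycle, MAT2A, which makes S-adenosylmethionine, fell by -0.42 (SE 0.042), -0.60 (SE 0.043) and -0.68 (SE 0.042) at 7 days and was lower at 2 days as well (-0.19, SE 0.050). AHCY, which clears S-adenosylhomocysteine, rose by 0.27 (SE 0.041), 0.47 (SE 0.041) and 0.54 (SE 0.041), and GNMT, the glycine methyltransferase, rose by 0.61 (SE 0.088), 0.55 (SE 0.088) and 0.76 (SE 0.085). BHMT and DMGDH, of betaine and dimethylglycine use, were under the count minimum of 10 in every treated library of 7 days. BHMT had 29 to 41 counts in the vehicle libraries and 0 to 6 in the treated ones, and DMGDH 57 to 138 and 1 to 9. Because they entered the test only through the group where they were high, neither a call nor a fold change is given for them.

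**Figure D5:**
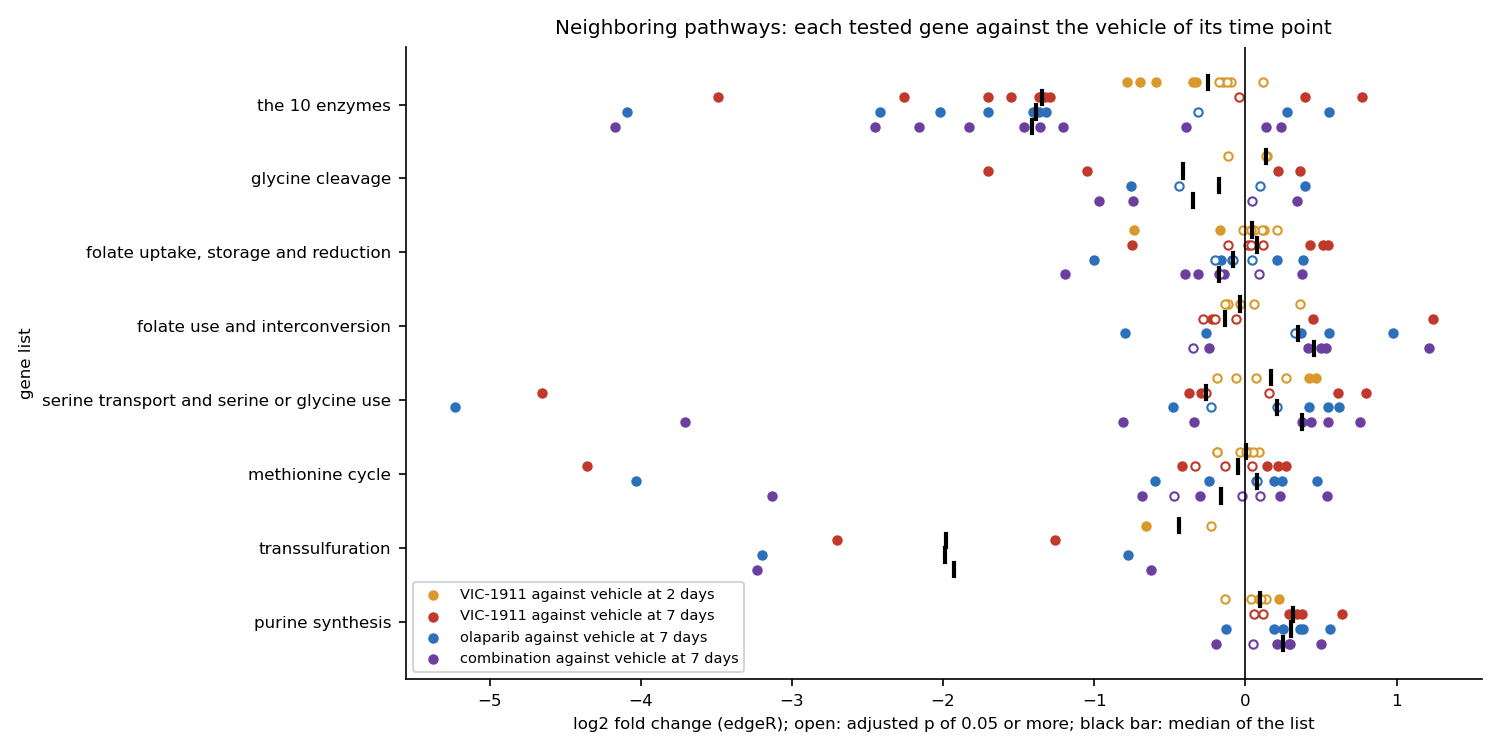
Log2 fold change (x axis, edgeR) of each tested gene of the 10 enzymes and of 7 lists of neighboring pathways (y axis), in colors for the 4 comparisons with vehicle, with open points where the adjusted p was 0.05 or more and a black bar at each median, BHMT and DMGDH included. At 7 days the medians were -1.34 to -1.41 for the 10 enzymes and -1.98, -1.99 and -1.93 for the 2 transsulfuration genes. The other 7-day medians lie between -0.41 (glycine cleavage) and 0.46 (folate use), lists without BHMT or DMGDH. These genes met the filter on counts through the vehicle libraries alone, and nothing is read from their points.

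The genes most like PHGDH over the 4 comparisons with vehicle, by the root mean square distance between log2 fold changes among 12230 genes, were ERO1B (0.16), ISL2 (0.18), DDIT4 (0.19), GARS (0.20) and SLC7A5 (0.20). At 2 days and at 7 days with VIC-1911, olaparib and both, ERO1B had -0.49, -1.69, -1.88 and -2.21. ISL2 had -0.80, -1.86, -1.95 and -1.85, and DDIT4 had -0.96, -1.97, -2.04 and -1.96. GARS, the glycyl-tRNA synthetase, had -0.45, -1.73, -1.95 and -1.94, and SLC7A5, a carrier of large neutral amino acids, had -0.44, -1.73, -2.17 and -2.32. Nearest to MTHFD2 were SLC4A5 (0.057), TSC22D3 (0.088), EMILIN1 (0.11), AKAP5 (0.11) and ITIH4 (0.11). SLC4A5, the overlapping gene named above, had -0.64, -1.57, -1.70 and -1.72 beside -0.59, -1.55, -1.70 and -1.83 for MTHFD2, and how many reads the genes share was not tested. The 7-day comparisons share vehicle libraries, so these distances only describe the values.

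The positions of the genes are those of RefSeq on GRCh38.p14, and other genes or copies could take part in some counts. PHGDH (chr1:119711934-119744215) overlaps no other gene and has 0 pseudogene copies by name, whereas PSAT1 (chr9:78297125-78330093) has 4 such copies, and PSPH (chr7:56011064-56051444), SHMT1 (chr17:18327873-18363550) and MTHFD1 (chr14:64388353-64460025) have 1 each. MTHFD1 shares 10920 bases with ZBTB25, SHMT1 shares 184 bases with SMCR8, and SHMT2 (chr12:57229711-57234935) shares 33 bases with COXFA4L2. MTHFD1L (chr6:150865702-151101887), MTHFD2L (chr4:74114560-74303099) and ALDH1L2 (chr12:105019790-105084458) overlap noncoding transcripts or pseudogenes, and MTHFD2 lies at chr2:74198615-74217565. The strand setting and the treatment of reads shared between copies are not given in the sources used here, so the counts of the genes with overlaps, and of those with copies, are uncertain to that extent.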

How the data were processed

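The authors trimmed the reads of 18 poly(A) RNA libraries, aligned them to GRCh38 with STAR (version 2.6.0 in the submitters' processing notes) and deposited, for each time point, counts per gene without normalization and FPKM values made with an in-house script. The deposited counts are whole numbers. FPKM per count, scaled to library totals, differs between the time points by a factor of 1.00 to 1.08 for the 10 genes, for a reason that was not tested. No level was tested across the tables, except that the VIC-1911 effects of the times were compared in a joint fit of counts. The paper names STAR for counting per gene as well. The strand setting and the treatment of shared reads are not given in the sources used here, and the paper and the labels name different extraction and library kits.

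The quasi-likelihood test of edgeR 4.0.16 (R 4.3.3, TMM scaling, glmQLFit, glmQLFTest, two-sided) was run on the genes that reached 10 counts in 3 or more libraries, which were 12241 at 2 days, 14409 at 7 days and 13811 in the joint fit. The p-values were adjusted by Benjamini-Hochberg over all genes of a comparison. Genes passed at an adjusted p under 0.05. Counts of called genes also needed a fold change of 1.5 at 2 days and 2 at 7 days, except in the interaction and the time comparison. Group values are means with the SD of 3 libraries. Ratios of FPKM were tested by exact permutation of the libraries (between-group sum of squares of log2 ratios), adjusted over 10 tests. Alternatives were other scalings, filters, DESeq2 1.42.0, limma 3.58.1 on log2(FPKM + 0.1) and log2(FPKM + 1), glmTreat, a replicate block, the compared groups alone and each library left out. No 2 libraries of a group agreed within counting error (chi-square per degree of freedom of 1.26 to 5.39). The code was tested on simulated data. Depth, which sets the precision, was 3245273 to 7184420 counts at 2 days and 4967931 to 19684208 at 7 days, with a biological coefficient of variation of 3.44% and 4.43%. The SE of a log2 fold change is its size divided by the square root of the F statistic of its test, so it is approximate. The SE of a difference between ratios comes from the variances of the groups compared. Intervals and errors cover the spread between libraries.

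The 10 genes, the lists and the comparisons were chosen with earlier results of these data known. Of the neighboring lists, up to 3 genes each were named by adjusted p in the combination against vehicle, and others, such as DLD, GART and ATIC, after their values were seen. The 5 genes most like PHGDH and MTHFD2 were taken by distance. All promoter motifs but the C/EBP-ATF core were chosen after the promoters were seen. DHFR2 is listed under its older symbol DHFRL1. Of the 45 neighboring genes, BHMT2, FOLR1, SARDH and SDS had too few counts at both times.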

Additional observations from a re-analysis of the deposited data

Results flagged for a closer look

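The effect of VIC-1911 differed between the time points for 9 of the 10 enzymes by a test of the difference itself (edgeR, adjusted p under 0.05), given here as the log2 fold change at 7 days less that at 2 days. The difference was -0.93 for PHGDH, -1.58 for PSAT1, -1.02 for PSPH, -1.03 for SHMT2, -1.18 for MTHFD1L, -0.97 for MTHFD2 and -3.35 for ALDH1L2, and it was 0.55 for SHMT1 and 0.85 for MTHFD1. The 2 times were separate experiments with different depths, and the part of this in the differences was not tested.

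The effect of VIC-1911 also differed between cells with and without olaparib for the same 9 enzymes by the test of the interaction. The effect with olaparib less that without was 1.56 for PHGDH, 2.22 for PSAT1, 1.44 for PSPH, 1.30 for SHMT2, 1.30 for MTHFD1L, 1.43 for MTHFD2 and 3.41 for ALDH1L2, and it was -0.54 for SHMT1 and -1.10 for MTHFD1. Each side of the interaction lies within a run of library numbers, but the sides are of different runs. A VIC-1911 effect that differs between the runs cannot be told apart from the interaction. ALDH1L2 had only 5 to 17 counts with olaparib and 7 to 12 with the combination, which left little room to measure a further fall. The vehicle and VIC-1911 libraries enter both contrasts, so they are not independent of each other.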

How the results depend on the processing

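The number of enzymes called lower at 7 days was 7 in each comparison with vehicle under the alternatives tried, except for 6 with the filter on mean FPKM, which leaves out ALDH1L2, and with limma on log2(FPKM + 1), where ALDH1L2 is under 2-fold. At 2 days it was 1 with glmTreat against the fold limit in place of 3 (PHGDH), and 2 to 3 with each library left out. MTHFD2, at 1.51-fold, fell under the limit of 1.5 without the first vehicle library, without the first VIC-1911 library and without the filter on counts, which left 2. The 7-day changes of PHGDH, PSAT1, PSPH, SHMT2, MTHFD1L, MTHFD2 and ALDH1L2 against vehicle passed under each alternative in which they were tested, and so did the 5 ratios over the 7-day groups (exact permutation p between 6.49e-05 and 0.00597 with each library left out). Of 1590 gene-level values, 1492 kept their direction and side of the threshold, 52 no longer passed, 23 newly passed and 23 changed sign, the last all in changes that did not pass in either fit. With each library left out, MTHFD2L ranged from -0.072 to 0.39 and ALDH1L2 from -0.42 to 0.21 (0.032 without the second VIC-1911 library) for VIC-1911 at 2 days, and MTHFD2L from -0.11 to 0.023 at 7 days. Likewise, between the combination and olaparib MTHFD1L ranged from -0.031 to 0.074 (-0.0094 without the filter on counts) and ALDH1L2 from -0.55 to 0.33. MTHFD2L ranged from -0.097 to 0.037 in the interaction and from -0.45 to 0.019 in the time comparison. PSPH between olaparib and VIC-1911 ranged from -0.041 to 0.042, and was -0.0019 with DESeq2 size factors, -0.0021 with DESeq2, and -0.030 and -0.029 with limma at either pseudocount. Deviations of libraries with the same replicate number were not correlated beyond 0.11 (r between -0.035 and 0.11 in 21 pairs). No pairing by number was thus seen, but with 3 libraries per group this cannot exclude it. With the replicate block, 7 members were lower in each 7-day comparison and 3 at 2 days, as without it, and between the combination and VIC-1911 SHMT2 passed (-0.11, adjusted p = 0.0415) and MTHFD2L did not (adjusted p = 0.0514, edgeR). Depth limits ALDH1L2 and MTHFD2L at 2 days (11 to 28 and 15 to 47 counts), where their changes were not detectable, and the order of the treatments for ALDH1L2 at 7 days.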
